A study of Mus musculus with 8 samples.

Results

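Regions of open chromatin that were shared by all wild-type (WT) mammary tumor cells, luminal and basal-like, and were missing from Lats1-CKO basal-like cells are described here. The peaks of 8 ATAC-seq libraries were merged into 183194 regions wherever they overlapped by at least 1 bp. Of these, 27087 had a peak in all 4 WT libraries and are called WT-wide. The 790 regions of interest were chosen by their peaks, as the WT-wide regions with a peak in neither Lats1-CKO basal-like library, and are called lost regions. They made up 2.92% of the WT-wide regions, a share that the choice itself fixed and that was not tested.

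ATAC-seq cuts accessible DNA with the Tn5 transposase, so a peak marks open chromatin. The cells were cultured from mouse mammary tumors driven by the PyMT oncogene (strain given as FBV/N in the labels), were sorted by flow cytometry and had either intact Lats1 (WT) or a conditional Lats1 knockout (Lats1-CKO). Sorting separated luminal cells (EpCAM-high and CD49f-high) from basal-like cells (EpCAM-low and CD49f-high), with 2 libraries in each of the 4 groups. After sorting, the cells were grown briefly in culture before the libraries were made. In the paper, sorted WT basal-like cells became partly luminal over passages, while Lats1-CKO basal-like cells stayed basal-like. The part of such a shift in the lost regions was not tested. The WT luminal libraries were BM1 and BM5 and the WT basal-like ones BM2 and BM6. The Lats1-CKO luminal libraries were BM3 and BM7, and the Lats1-CKO basal-like ones BM4 and BM8. The oncogene and the culture medium were common to all groups. At Lats1 itself, in the gene or within 1 kb of it, there were 2 to 4 peaks in each WT library, 3 in BM4 and 4 in BM8, which cannot show whether exons are deleted. The labels name neither the Cre driver nor which libraries came from which tumor. The paper describes the ATAC-seq libraries as 2 biological replicates per group. Whether the 2 came from separate tumors is not given in the labels. With 2 per group no difference between groups was tested.

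LATS1 is a kinase of the Hippo pathway, which restrains the coactivators YAP and TAZ. Luminal mammary cells are held together by E-cadherin and tight junctions and express epithelial transcription factors and splicing regulators. Many of these genes are repressed in epithelial-mesenchymal transition by zinc-finger proteins of the SNAI and ZEB families, which bind an E-box with the letters CAGGTG on one strand and CACCTG on the other. Peak lists do not show which factor, if any, was bound at such an E-box, and this was not tested.

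The sequences below show what many lost regions had in common, which the choice by peaks had not used. The first 2 are from lost promoters, the next 2 from the lost regions far from a transcription start site (TSS) that ranked 1 and 3 by WT score, and the last from the lost promoter of highest WT score, which held no such E-box in its central 400 bp. Capitals mark the CAGGTG E-box on either strand. Sequence and coordinates are of GRCm38.p6 and, for promoters, read in the direction of the gene. Stretches annotated as untranslated regions were left out.
Cdh1 (chr8:106603182-106603350, plus strand): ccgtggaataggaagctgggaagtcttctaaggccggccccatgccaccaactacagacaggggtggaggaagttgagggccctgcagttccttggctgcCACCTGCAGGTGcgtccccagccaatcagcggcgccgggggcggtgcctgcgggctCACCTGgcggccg
Tfcp2l1 (chr1:118627768-118627945, plus strand): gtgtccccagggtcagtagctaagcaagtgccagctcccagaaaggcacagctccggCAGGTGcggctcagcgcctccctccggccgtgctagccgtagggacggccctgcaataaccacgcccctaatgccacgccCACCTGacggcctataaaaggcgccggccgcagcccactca
Tmprss11e, distal (chr5:86741236-86741464, plus strand): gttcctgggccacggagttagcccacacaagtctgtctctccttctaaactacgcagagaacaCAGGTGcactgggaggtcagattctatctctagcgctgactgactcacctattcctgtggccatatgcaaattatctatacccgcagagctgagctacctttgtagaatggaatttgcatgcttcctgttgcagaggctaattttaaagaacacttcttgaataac
Slc39a11, distal (chr11:113232076-113232375, plus strand): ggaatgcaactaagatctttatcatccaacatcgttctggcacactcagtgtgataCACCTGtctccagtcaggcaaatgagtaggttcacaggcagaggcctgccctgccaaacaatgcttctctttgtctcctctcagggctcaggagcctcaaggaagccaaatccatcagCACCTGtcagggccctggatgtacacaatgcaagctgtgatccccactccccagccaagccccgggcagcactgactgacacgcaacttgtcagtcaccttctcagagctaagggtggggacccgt
Cldn3 (chr5:134985808-134986107, plus strand): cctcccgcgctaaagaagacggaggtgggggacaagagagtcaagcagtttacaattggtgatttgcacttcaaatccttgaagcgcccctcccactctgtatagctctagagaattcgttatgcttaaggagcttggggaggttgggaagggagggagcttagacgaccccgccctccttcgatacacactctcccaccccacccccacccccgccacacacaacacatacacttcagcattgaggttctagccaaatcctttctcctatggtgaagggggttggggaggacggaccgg

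The Cdh1 promoter, which drives E-cadherin, the adhesion molecule of epithelial cells, held 3 of these E-boxes, a pair of them side by side. Tfcp2l1 encodes a factor of the CP2 family related to the grainyhead proteins, and its window held 2. Tmprss11e encodes a transmembrane serine protease of epithelia, and its distal window held 1. The distal window nearest to Slc39a11, a zinc transporter gene, held 2. Cldn3 encodes a claudin of tight junctions.

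Over all lost regions, 469 of 790 (59.4%) held at least 1 CAGGTG E-box within their central 400 bp. This window was wider than the median lost region (268.5 bp), so a match could lie beside the region. E-box counts given below for single regions are also those of the window. The share was 24.8% in the 23346 WT-wide regions kept in both BM4 and BM8, 27.1% in all WT-wide regions and 24.9% in all 183194 merged regions, each searched over the same length. Among lost regions within 1 kb of a TSS it was 67.6%, against 24.3% of kept ones. Among lost regions farther away it was 57.0%, against 25.2%. A second match was present in 192 lost regions (24.3%) and in 3.78% of kept ones. Read the other way, 1.63% of the WT-wide regions without the E-box were lost, 4.60% of those with 1, 12.7% of those with 2 and 24.9% of those with 3 or more. Regions are not replicates of a condition, so these shares are descriptions without a p-value.

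Matches to the E-box were more frequent toward the centre of the lost regions. In bins of 50 bp, those within 50 bp of the centre held a match in 16.3% of lost regions on average, and bins from 300 to 500 bp away in 3.91%. Kept regions had 3.40% and 4.05% in the same bins. The higher share was not restricted to weak WT peaks. Where the smallest of the 4 WT score percentiles was 20 or less, 53.8% of lost and 25.3% of kept regions held the E-box. Between 20 and 40 it was 61.1% and 26.2%, between 40 and 60 it was 62.6% and 25.0%, and above 60 it was 72.7% and 24.0%. The share was higher in lost than in kept regions on 20 of 20 chromosomes, from 41.2% to 78.1% in lost and from 17.9% to 28.9% in kept regions.

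**Figure D1:**
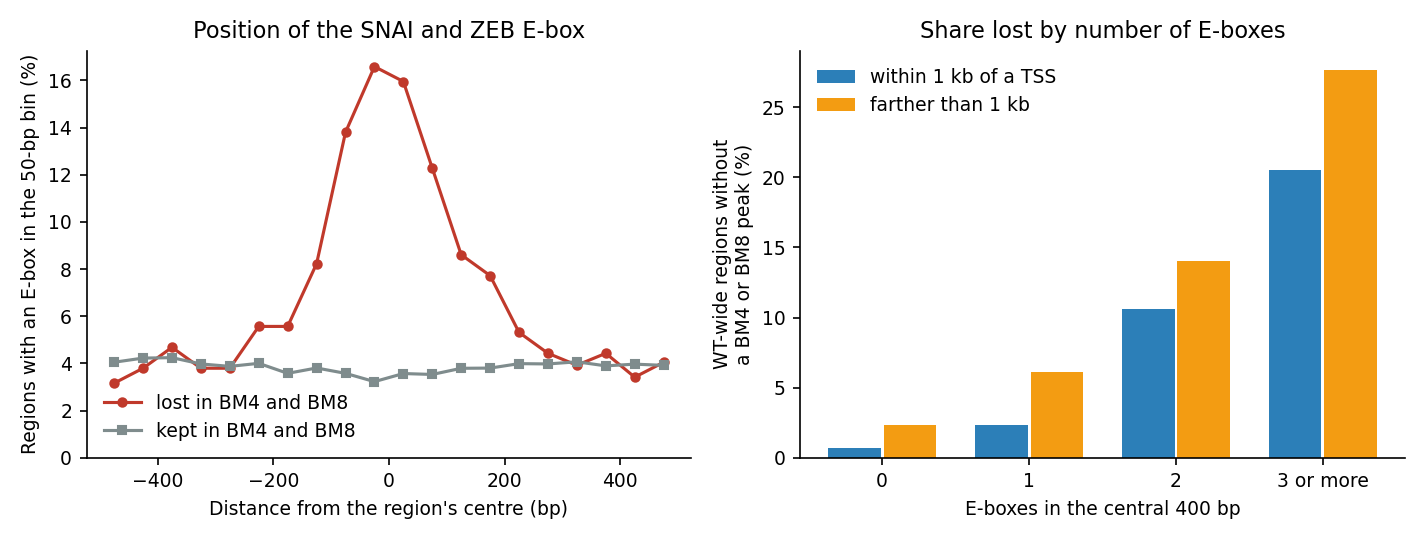
Left, percentage of regions with a CAGGTG E-box (either strand) in each 50-bp bin, by distance in bp from the region's centre, for regions lost in BM4 and BM8 and regions kept in both. Right, percentage of WT-wide regions without a BM4 or BM8 peak by the number of E-boxes in the central 400 bp, within 1 kb of a TSS and farther away. The lost regions peak at the centre (16.3% on average in the inner bins) while kept regions stay near 4%, and the share lost rises from 0.692% to 20.5% near a TSS and from 2.32% to 27.6% farther away.

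The E-box was also the sequence that set the lost regions most apart when all 2080 words of 6 letters were counted, each together with its reverse complement. Its share exceeded that of kept regions by 34.6 percentage points over all regions, by 43.3 points within 1 kb of a TSS and by 31.8 points farther away, and it ranked 1 in each set. The word ranked 2 was ACAGGT, which overlaps the E-box, with 42.5% and 15.9%. The other E-boxes (CANNTG, 10 forms in all) differed far less. CAGCTG was in 26.6% of lost and 24.3% of kept regions, CAGATG in 26.6% and 24.0%, and CACGTG in 4.56% and 8.89%. The words were chosen for counting after the E-box had been seen in these data, so their order adds no independent evidence.

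Among the other 13 motifs listed, none differed between lost and kept regions by as many points as the E-box. The AP-1 motif TGANTCA, bound by FOS and JUN, was in 51.6% of lost and 51.5% of kept distal regions, and in 22.3% and 12.6% of those within 1 kb of a TSS. ACATTCC, the motif of the TEAD factors through which YAP and TAZ act, was in 10.5% of lost and 7.38% of kept regions. Among distal regions alone it was in 11.9% and 10.1%. The RUNX motif TGTGGTT was in 15.8% and 10.6% of all regions and in 17.8% and 14.9% of distal ones. The GATA motif AGATAA was in 14.9% and 13.2% of distal regions. The GRHL motif AACCNGGTT was found in 0.633% and 0.313%, too few for any reading. The forkhead motif TGTTTAC was in 4.68% and 4.99%. The estrogen response element was in 1 lost and 4 kept regions (0.127% and 0.0171%), also too few for any reading.

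Motifs of CpG-rich promoters were less frequent in the lost regions. The SP and KLF motif GGGCGG was in 49.7% of lost and 69.4% of kept regions within 1 kb of a TSS, and the ETS motif CCGGAAG in 6.15% and 20.5%. There, NFY (GATTGG) was in 19.6% and 24.5%, NRF1 (GCATGCGC) in 3.35% and 5.46%, and TFAP2 (GCCNNNGGC) in 28.5% and 34.0%. The median GC content of these promoter windows was 58.0% in lost and 62.8% in kept regions. The CTCF motif, which marks boundaries of chromatin loops, was in 1.80% of lost and 7.83% of kept distal regions, where the median GC content was 47.8% and 49.0%.

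**Figure D2:**
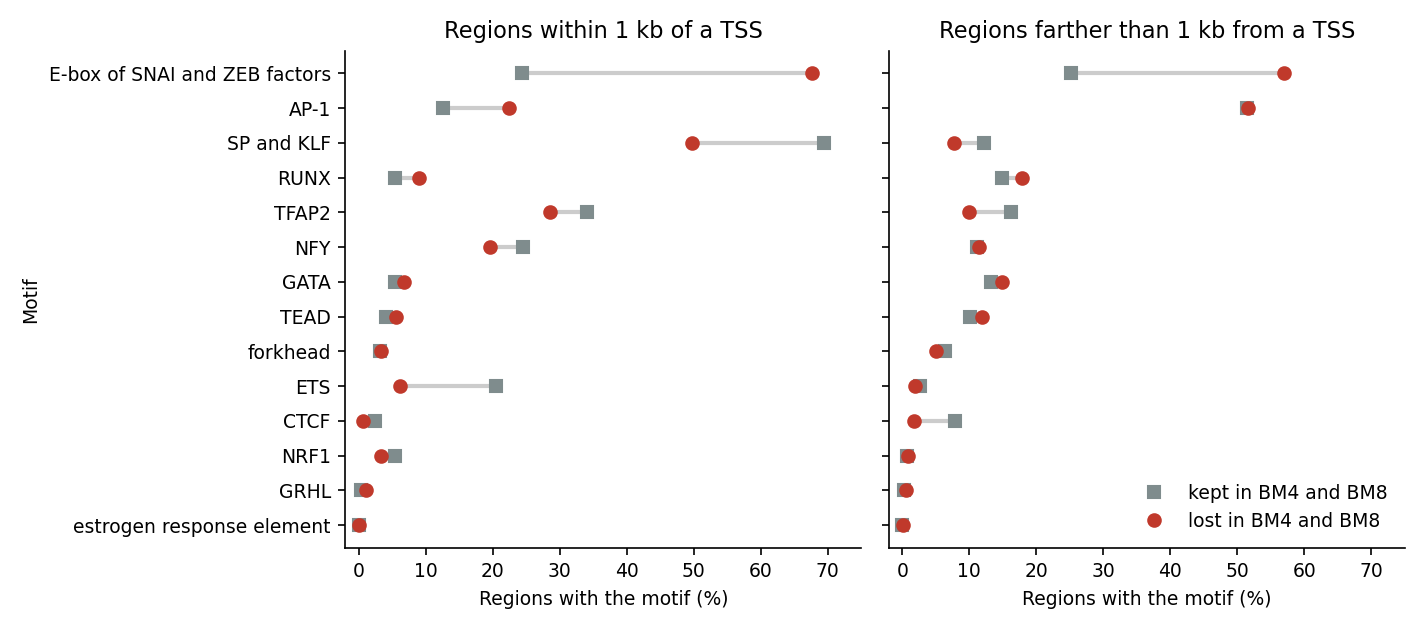
Percentage of regions with each of 14 motifs in the central 400 bp (horizontal axis), for regions lost in BM4 and BM8 (circles) and kept in both (squares), within 1 kb of a TSS (left) and farther away (right). The CAGGTG E-box, labelled by SNAI and ZEB factors, has the widest gap in both panels (67.6% against 24.3% and 57.0% against 25.2%). ETS, SP and KLF and CTCF lie lower in lost regions. Binding of the named factors was not tested.

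Among regions missing from only 1 of BM4 and BM8 the share with the E-box lay between those of lost and kept regions. It was 32.9% of the 1048 regions with a peak in BM4 and none in BM8, and 39.3% of the 1903 with a peak in BM8 and none in BM4. In the 353 regions kept in BM4 and BM8 and missing from BM7, a Lats1-CKO luminal library, it was 21.8%. In the 6380 regions with peaks in BM4 and BM8 and in no WT library it was 16.9%.

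The lost regions differed among themselves by the E-box. Those with it had a BM7 peak in 90.0% of cases and a BM3 peak in 29.0%, and those without it in 76.9% and 11.2%. Kept regions with and without it had a BM7 peak in 98.7% and 98.4% and a BM3 peak in 45.8% and 47.1%. The median score percentile of lost regions with the E-box was 74.6 (BM1) and 72.8 (BM5) in WT luminal libraries, 65.0 (BM2) and 32.2 (BM6) in WT basal-like libraries, and 70.0 in BM7. Without it the medians were 61.4, 62.4, 59.3, 30.0 and 61.4 in that order. Both sets were therefore lowest in BM6 among the WT libraries. WT peaks were used to choose the regions, so the WT values are a description only.

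The score percentile is the rank of a peak's deposited score within its own library, on a scale from 0 to 100, and is used because scores were not normalized between libraries. The median of lost regions was 69.9 (BM1) and 68.3 (BM5) in WT luminal and 63.0 (BM2) and 31.4 (BM6) in WT basal-like libraries. Kept regions had 80.2, 74.6, 78.7 and 73.6 in the same order. BM6 was the WT library with the lowest percentile in 526 of 790 lost regions (66.6%) and in 34.3% of kept ones. Both WT luminal libraries exceeded both WT basal-like libraries in 285 lost regions (36.1%), against 16.7% of kept ones, and the opposite order was seen in 18 (2.28%), against 11.7%. The lost regions were thus ranked lower in WT basal-like than in WT luminal cells more often than kept ones were. Taken alone, BM6 was below both WT luminal libraries in 73.7% of lost and 40.7% of kept regions, and BM2 in 42.7% and 29.2%. The number of lost regions was 2912 without BM6, 1305 without BM5, 1838 without BM4 and 2700 without BM8, since fewer libraries then had to have or lack a peak.

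The smallest of the 4 WT percentiles was 22.5 in the median lost region (quartiles 12.7 and 39.2, highest 88.7), 57.8 in kept regions and 53.6 over all WT-wide regions. Without BM6, which was most often the lowest, the median of the smallest percentile was 34.5. The share of WT-wide regions that were lost fell from 8.28% where this percentile was 10 or less to 0.800% between 70 and 80 and 0.138% between 80 and 90. None of the 2315 regions above 90 was lost. At the edge of the rule, 24 lost regions had a BM5 peak at 13, the lowest score in that library. A peak below percentile 10 was found in 78 lost regions for BM6, 30 for BM2, 24 for BM5 and 16 for BM1. Just outside the rule, 92 regions counted as missing from BM4 only had a BM8 peak below percentile 10, and 30 counted as missing from BM8 only had such a BM4 peak. A missing peak is one that was not called. Calling depends on depth and on openness, and the lists hold no read counts. A smaller share of cells with an open region and less open chromatin in each cell cannot be told apart.

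In Lats1-CKO luminal cells most of the lost regions were still open in 1 library. BM7 had a peak in 669 of 790 (84.7%), with a median percentile of 66.8 there, and BM3 in 172 (21.8%). Of all WT-wide regions 2.93% had no BM7 peak. BM3 held 14753 peaks, against 93467 in BM7, and had a peak in 43.0% of all WT-wide and 46.8% of kept regions. Both libraries had a peak in 167 lost regions, BM7 alone in 502, BM3 alone in 5 and neither in 116 (14.7%), against 1.43% of kept regions with neither. Within bands of WT score, the BM3 share was close in lost and kept regions, 12.8% and 10.3% in the lowest band of 10 percentiles and 73.1% and 64.7% between 70 and 80. The BM7 share of lost regions was 73.7% in the lowest band, where kept regions had 94.9%, and 96.2% between 70 and 80, where kept regions had 99.8%. Without BM5 or BM6 in the rule, the BM3 share of the lost regions was 14.5% and 9.92%, and the BM7 share 79.6% and 65.9%.

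**Figure D3:**
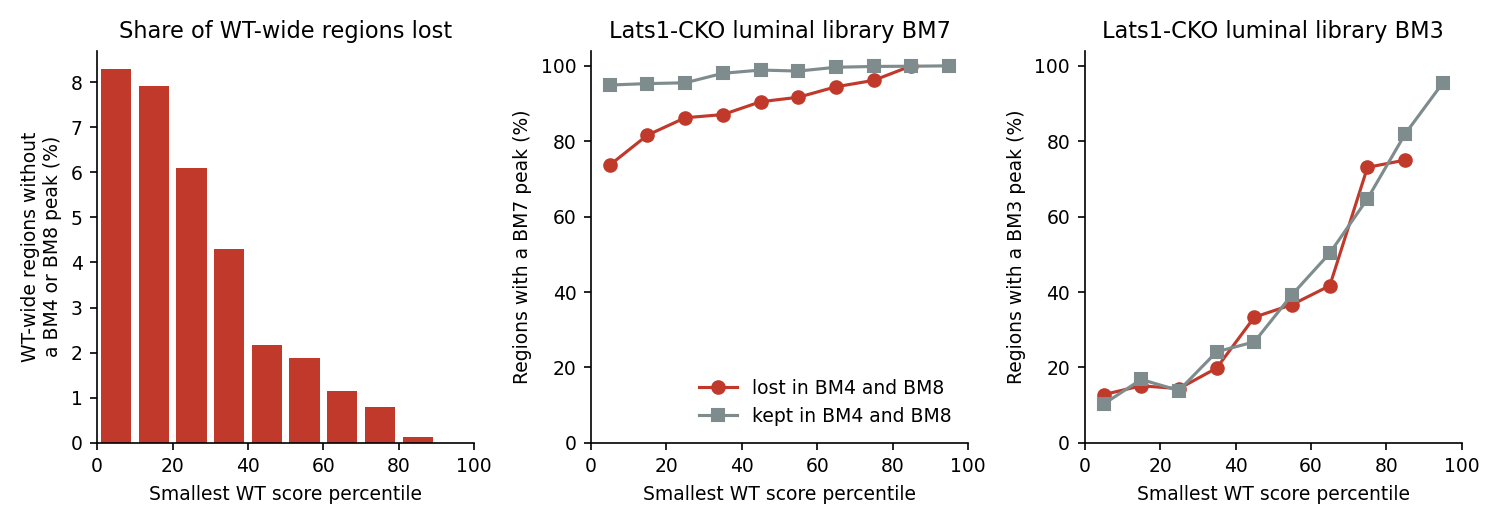
WT-wide regions in bands of 10 by the smallest of their 4 WT score percentiles (horizontal axis). Left, percentage lost in BM4 and BM8; middle and right, percentage with a peak in the Lats1-CKO luminal libraries BM7 and BM3, for lost regions (circles) and kept regions (squares). Loss falls from 8.28% to 0, the BM7 curve of lost regions starts at 73.7% below the 94.9% of kept regions, and the 2 BM3 curves run together.

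Lost regions lay away from TSSs more often than kept ones. Of the 790, 179 (22.7%) were within 1 kb of the TSS of any annotated transcript, against 45.0% of kept and 41.9% of all WT-wide regions. As a share of WT-wide regions, 1.58% of those within 1 kb and 3.88% of those farther away were lost. Within 5 kb there were 334 lost regions (42.3%), against 59.4% of kept ones, and farther than 50 kb 93 (11.8%), against 5.24%. The centre of the lost region lay in an exon in 92 cases, in an intron in 355 and between genes in 343. The median width was 268.5 bp in lost and 329 bp in kept regions.

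The lost regions were spread over all 20 chromosomes with peaks (1 to 19 and X). The share of WT-wide regions that were lost ranged from 1.56% on chromosome 17 to 4.58% on chromosome 13, and was 3.64% on X. Most stood alone between regions that were not lost. Counting WT-wide regions in order along a chromosome, 691 were single, 38 runs held 2 lost regions, 5 held 3 and 2 held 4. The nearest BM4 or BM8 peak was 3.61 kb away in the median, and 113 lost regions had one within 500 bp.

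The longest runs held 4 lost regions, and the shorter of them was at Esrp1, which encodes an RNA-binding protein that directs epithelial splicing. All 4 consecutive WT-wide regions from 11370744 to 11388448 on chromosome 4, over 17.7 kb, were lost, and each had a BM7 peak. The region over the promoter stood at percentile 88.8 in BM1, 94.5 in BM5, 67.0 in BM2, 39.8 in BM6, 62.9 in BM3 and 82.7 in BM7. The next one upstream (chr4:11387204-11387456) had 90.2 in BM1 and in BM5, 85.3 in BM2, 58.2 in BM6, 61.3 in BM3 and 81.4 in BM7. BM6 was thus the lowest of the 6 libraries with a peak in both regions. The other run of 4 spanned 455 kb between Stac and Arpp21 on chromosome 9. Runs of 3 lay near Hs3st4 and at Anks4b and Crym on chromosome 7, near Ly86 and between Ntrk2 and Agtpbp1 on chromosome 13, and between Fbxo15 and Neto1 on chromosome 18. In the chromosome 7 run near Hs3st4, which encodes a heparan sulfate sulfotransferase, all 3 regions had a BM7 peak and 2 a BM3 peak.

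At promoters the lost regions included genes that define luminal epithelial cells. Of 9659 protein-coding genes with a WT-wide region within 1 kb of a TSS, 153 (1.58%) had a lost one. On a list of 25 luminal identity genes, 11 had a WT-wide region there, and 5 of the 11 had a lost one: Krt18, Epcam, Cdh1, Elf3 and Wfdc2. On a list of 40 genes of epithelial junctions, polarity and splicing, it was 7 of 22: Cldn3, Ocln, Marveld2, Esrp1, Esrp2, Ovol2 and Spint1, with 9 lost of 29 WT-wide regions. Without BM6 in the rule, when 2912 regions were lost, the 2 lists had 10 and 14 such genes. Without BM8, when 2700 were lost, they had 5 and 11. With WT peaks below the median score of their library set aside, when 126 regions were lost, they had 3 and 2. Genes with a WT-wide promoter region were not counted under these rules, so these counts have no share beside them.

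The other lists had few or none within 1 kb. Of 15 basal-like and myoepithelial genes with a WT-wide promoter region, 1 had a lost one. Of 7 estrogen response genes it was 1, Celsr2, an atypical cadherin. None was lost among 7 genes of epithelial-mesenchymal transition and mesenchyme, 23 of the Hippo pathway, 13 YAP and TAZ targets, 15 of the NCOR and HDAC corepressors, 19 of the interferon response and antigen presentation, and 16 of the TGF-beta, Wnt and Notch pathways. Nor was any lost for the 1 immune gene and the 2 genes of absent tissues with a WT-wide promoter region, and no endothelial gene had one. Within 5 kb, where 2.48% of 11141 genes had a lost region, Ptpn14, a phosphatase that restrains YAP, and Lgals7 and Vim (galectin-7 and vimentin) were added. At that distance 3 of 16 basal-like and myoepithelial genes had a lost region, against 5 of 13 luminal identity and 7 of 32 junction genes. The basal-like and junction lists were thus closer to each other than within 1 kb. It was 1 of 27 for the Hippo pathway and 1 of 15 for YAP and TAZ targets. Lists of these sizes hold too few genes to read an absence from a count of 0.

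**Figure D4:**
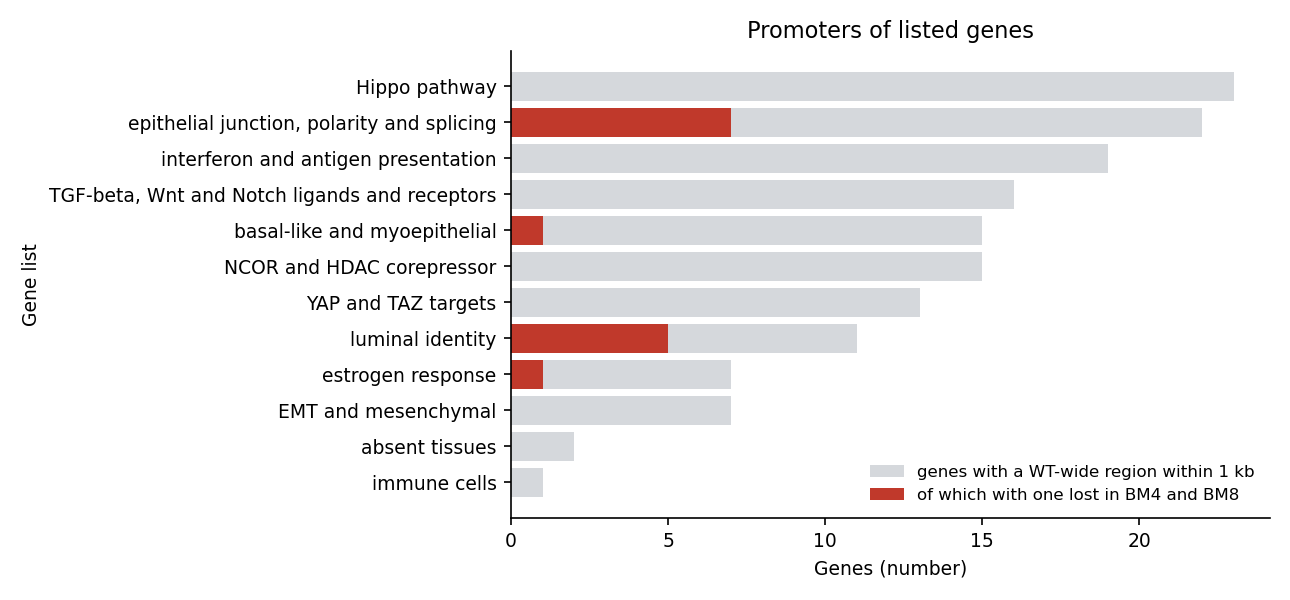
Number of genes of each list (horizontal axis) with a WT-wide region within 1 kb of a TSS (grey) and the number of these with a region lost in BM4 and BM8 (red). The red bars are 5 of 11 for luminal identity and 7 of 22 for epithelial junction, polarity and splicing genes, 1 of 15 and 1 of 7 for 2 other lists, and 0 for the rest.

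The sort itself bears on the first list, because EpCAM, the product of Epcam, was one of the antigens that separated the cells. Of 9 luminal markers, BM4 had a promoter peak (within 1 kb) at 5 and BM8 at 4, against 8 in BM2, 6 in BM6 and 9 in each of BM1, BM5 and BM7. Of 7 basal-like markers, 4 had one in each of the WT and Lats1-CKO basal-like libraries. Of 6 fibroblast markers, 5 and 3 had one in BM4 and BM8, 4 and 3 in BM2 and BM6, and 2 and 1 in BM1 and BM5. Of 4 immune markers it was 2 and 3 in BM4 and BM8 and at most 1 in the WT libraries, and of 3 endothelial markers 2 and 1 in BM4 and BM8 and at most 1 in the WT libraries. The part of these other cells in the lost regions was not tested.

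Of the luminal genes, the Cdh1 region (chr8:106603182-106603462, over the TSS of ENSMUSG00000000303, plus strand) ranked at percentile 89.1 (BM1) and 91.4 (BM5) in WT luminal and 87.9 (BM2) and 67.2 (BM6) in WT basal-like cells. In Lats1-CKO luminal cells it stood at 79.3 (BM3) and 92.9 (BM7). The E-cadherin promoter was thus in the upper part of every library except BM4 and BM8, which had no peak there. Elf3 encodes an epithelial ETS factor. Its region (chr1:135258351-135258723) had 88.4 in BM1, 83.9 in BM5, 83.8 in BM2, 51.0 in BM6, 60.6 in BM3 and 72.0 in BM7. Wfdc2 encodes a secreted protein with protease-inhibitor domains. Its region (chr2:164562425-164562636) had 77.7 in BM1, 70.8 in BM5, 63.6 in BM2, 37.5 in BM6 and 9.77 in BM7, and BM3 had no peak. Krt18, a keratin of luminal cells, and Epcam each held 1 E-box in the central 400 bp of their lost promoter region. Elf3 also held 1, Wfdc2 2 and Cdh1 3, so that all 5 windows held at least 1. Each of the 5 regions was narrower than its window. A match may therefore lie outside the region, though those of Cdh1 lay inside. Elsewhere within 1 kb of a TSS, BM4 and BM8 both had peaks at Elf3 and Wfdc2. At Krt18, Epcam and Cdh1 neither library had a peak within that distance.

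Of the junction genes, the Cldn3 region (chr5:134985703-134986298) had the highest smallest WT percentile of all lost promoters. It was at 91.5 (BM1), 79.0 (BM5), 92.0 (BM2) and 87.0 (BM6), at 73.3 in BM3 and, lower than in any WT library, at 32.2 in BM7. Ocln and Marveld2 encode occludin and tricellulin, further proteins of the tight junction. The Ocln region (chr13:100552436-100552789) had 57.4 in BM1, 87.8 in BM5, 45.0 in BM2, 37.5 in BM6 and 71.3 in BM7. The Marveld2 region (chr13:100616610-100617099) had 69.0 in BM1, 65.1 in BM5, 77.7 in BM2, 34.7 in BM6 and 77.3 in BM7. Neither had a BM3 peak, and the Ocln region held 4 E-boxes and the Marveld2 region 2.

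Esrp2, the second epithelial splicing regulator, lost 2 regions, at chr8:106134885-106135456 with 4 E-boxes and at chr8:106136724-106137092 with 1. The first was at 74.0 (BM1), 93.7 (BM5), 42.8 (BM2) and 5.07 (BM6), at 60.6 in BM3 and at 73.3 in BM7. Its BM6 peak was thus among the weakest of that library. Ovol2 encodes a zinc-finger repressor of mesenchymal genes, and its region (chr2:144332079-144332286) had 72.8 in BM1, 35.5 in BM5, 61.1 in BM2, 45.1 in BM6 and 81.9 in BM7. Spint1 encodes an inhibitor of epithelial serine proteases, and its region (chr2:119237184-119237688) had 62.3 in BM1, 65.1 in BM5, 31.4 in BM2, 17.9 in BM6 and 19.2 in BM7. Neither had a BM3 peak. Of the 9 lost junction regions, those of Cldn3 and Ovol2 and the upstream region of Esrp1 held no E-box in the central 400 bp. Elsewhere within 1 kb of a TSS, BM4 and BM8 both had peaks at Ovol2, and BM8 had one at Esrp1. At Cldn3, Ocln, Marveld2, Esrp2 and Spint1 neither library had a peak within that distance.

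**Figure D5:**
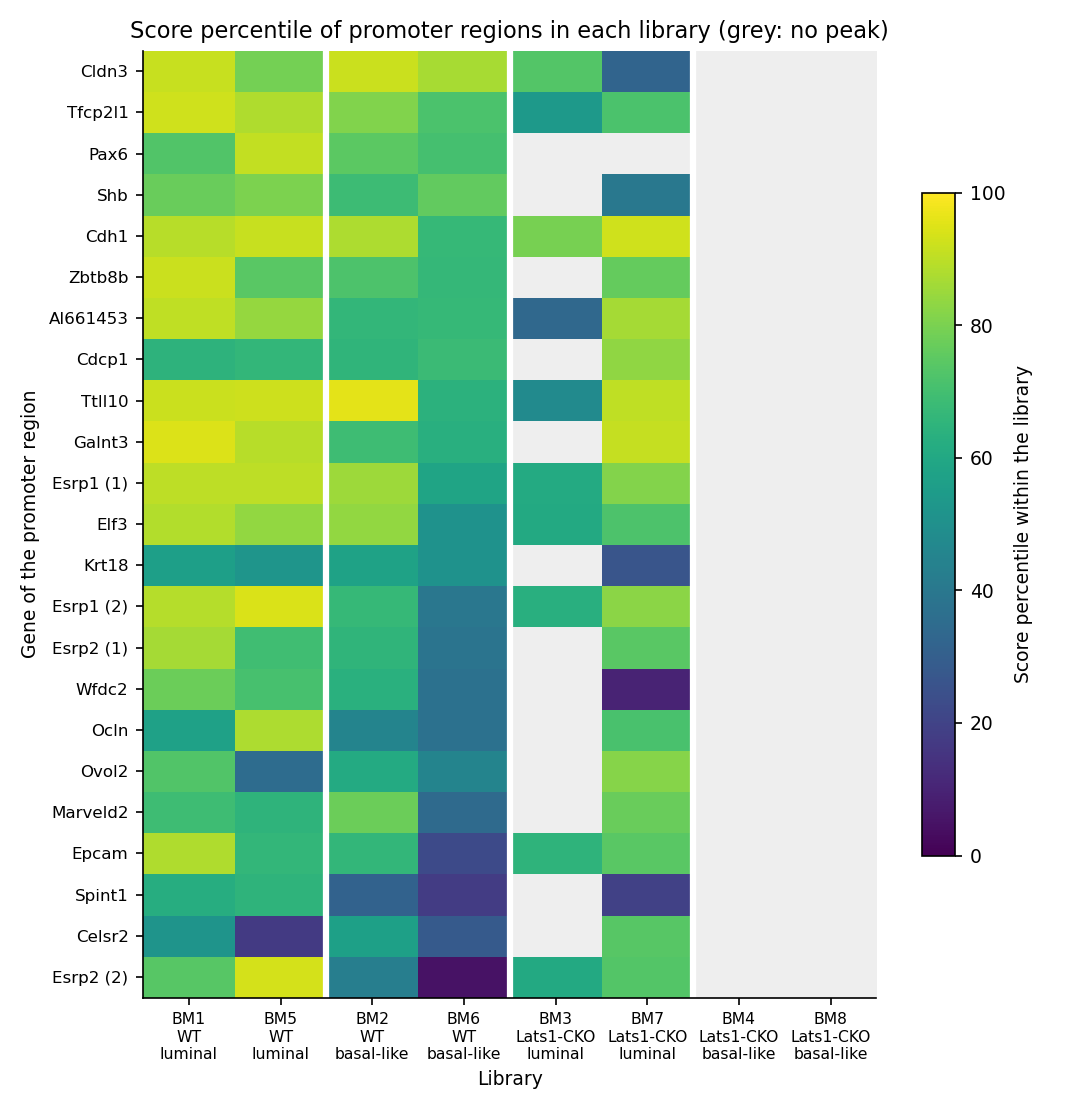
Score percentile within each library (colour, 0 to 100; grey, no peak) of 10 of the 12 lost promoter regions ranked first by their smallest WT percentile and of the lost promoter regions of listed genes. Rows are in order of the smallest WT percentile, from Cldn3 (79.0) to the lower Esrp2 row (5.07), and numbers in brackets tell 2 regions of a gene apart. BM6 is the lowest WT column in most rows, BM7 has a peak in every row but that of Pax6, and BM4 and BM8 are empty by the choice of the regions.

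Some lost promoters outside the lists also ranked high by WT percentile, though none above Cldn3. Among the 12 ranked first by the smallest WT percentile were, in this order, Cldn3, Tfcp2l1, Pax6, Shb, Cdh1, Zbtb8b, AI661453, Cdcp1, Ttll10 and Galnt3. Of these, Cldn3 and Cdh1 are on the lists. The Tfcp2l1 region (chr1:118627768-118628063) had 92.7 in BM1, 88.2 in BM5, 80.9 in BM2, 71.6 in BM6, 54.1 in BM3 and 71.8 in BM7.

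Galnt3 encodes an enzyme that starts O-glycosylation. Its region (chr2:66124631-66124967), with 4 E-boxes, had 94.6 in BM1, 89.3 in BM5, 69.0 in BM2, 63.0 in BM6 and 91.4 in BM7. Ttll10, a gene of the tubulin tyrosine ligase-like family, had a region (chr4:156059391-156060099) with 3 E-boxes at 91.9 in BM1, 92.2 in BM5, 95.9 in BM2, 64.2 in BM6, 48.0 in BM3 and 90.3 in BM7. Cdcp1 encodes a transmembrane substrate of SRC kinases. Its region (chr9:123215625-123216200) had nearly the same percentile in the WT libraries, 64.5 (BM1), 66.0 (BM5), 65.3 (BM2) and 68.1 (BM6), and 83.6 in BM7. The Shb and Zbtb8b regions were at 68.4 and 66.5 in their lowest WT library, held 2 E-boxes each and had a BM7 peak and no BM3 peak. Of the 12 promoters, 9 held at least 1 E-box. Cldn3 and Pax6 were among those with none.

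Of the lost promoter regions without a peak in any Lats1-CKO library, the one ranked first was at Pax6, a transcription factor of the eye and pancreas, whose region (chr2:105675310-105675652) had 72.8 (BM1), 90.8 (BM5), 74.7 (BM2) and 70.4 (BM6). It was followed by Creld1, at 60.4 in its lowest WT library, and by Arvcf, a catenin of adherens junctions, Brinp2 and Plin2, a coat protein of lipid droplets, at 35.5, 34.7 and 33.6. Creld1 and Brinp2 held 1 E-box each, and the other 3 none. Elsewhere within 1 kb of a TSS, BM4 and BM8 had peaks at Creld1, Arvcf and Plin2, and BM4 had one at Pax6. Over all 116 lost regions without a Lats1-CKO peak, 37.9% held the E-box, against 63.1% of the 669 with a BM7 peak. The strongest lost promoters with a peak in both BM3 and BM7 included those of Cldn3, Tfcp2l1 and Cdh1.

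A lost region did not always mean a promoter without a peak. Of the 153 genes, 97 had lost every WT-wide region within 1 kb of a TSS, and 56 had another WT-wide region there that was not lost. In 59 genes (38.6%) neither BM4 nor BM8 had any peak within 1 kb of a TSS.

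The first-ranked distal lost regions had higher percentiles than the first-ranked promoters. In the median, the smallest WT percentile was not higher, at 22.5 in distal lost regions and 26.4 in those within 1 kb of a TSS. The region ranked first by its smallest WT percentile (chr5:86741236-86741464) lay in an intron of the reference annotation, 4.35 kb from the TSS of Tmprss11e, with 99.9 in BM1, 98.6 in BM5, 98.9 in BM2, 88.7 in BM6, 87.9 in BM3 and 99.2 in BM7. It was thus close to the top of every library with a peak. The region 118 kb from the TSS of Car10, a carbonic anhydrase-related gene (chr11:93217332-93217903), had 90.0 in BM1, 86.7 in BM5, 92.2 in BM2, 83.3 in BM6, 47.0 in BM3 and 81.0 in BM7. The region 333 kb from Slc39a11 (chr11:113232023-113232429) had 98.1 in BM1, 94.2 in BM5, 97.4 in BM2, 82.3 in BM6, 84.6 in BM3 and 98.5 in BM7.

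The next distal regions lay near Ncam2 (546 kb), Etv6 (85.3 kb), 3110018I06Rik (724 kb), 2010111I01Rik (4.31 kb) and Epb41l4b (13.5 kb), with smallest WT percentiles of 81.7, 79.6, 78.9, 77.8 and 77.5. Etv6 encodes a repressor of the ETS family and Epb41l4b a protein of the membrane skeleton. The nearest gene is a position and need not be the target of a distal region. Of the 8 distal regions ranked first, 6 held an E-box and all had a BM7 peak.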

How the data were processed

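The authors sorted the cultured tumor cells, grew the sorted cells briefly in culture, prepared ATAC-seq libraries with Tn5 and processed the reads. According to the paper's methods and the submitters' processing notes, reads were trimmed with cutadapt, aligned to mm10 (GRCm38) with Bowtie 1.0.0 and cleared of mitochondrial and duplicate reads (Picard 2.3.0) and of long fragments. Peaks were called in each library separately with MACS2 (2.1.1.20160309 in the notes, an earlier version in the methods) and those on the ENCODE blacklist were removed. For each library the authors deposited 1 list, 8 in all, giving each peak's position and score. The deposited score was at least 13 in every library and was taken to be that of MACS2. It depends on depth and is not normalized between libraries, so it was turned into a percentile within its library. Where a region held several peaks of a library, the highest was used.

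The libraries held 14753 (BM3) to 99022 (BM8) peaks. Read counts are not in the lists, so depth and counting error are unknown and the authors' DiffBind comparison was not repeated. BM3 had few peaks, so its share of lost regions was set beside that of kept regions, except under the alternatives. The authors set aside 1 replicate of Lats1-CKO luminal cells for quality, without naming it, and both were used here. Peak lists cannot show the Lats1 deletion itself.

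Peaks that overlapped by at least 1 bp were merged across libraries. GENCODE M21 gave TSSs, exons and untranslated regions, and GRCm38.p6 the sequence. The 400 bp around the centre of each region, also of narrower regions, was searched for motifs on either strand, with overlapping matches counted. The CAGGTG E-box is 1 of the 10 forms of CANNTG. Of 284 listed genes, 281 matched the annotation. Scripts ran under python 3.11.15 with pysam 0.24.0, numpy 2.4.6, scipy 1.17.1, pandas 2.3.3 and matplotlib 3.10.9, and the merging, the rule and the motif search were tested on simulated data.

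The regions and the gene lists were chosen with earlier results of these data known. Genes were named by a rule: the 12 lost regions within 1 kb of a protein-coding TSS and the 8 farther away with the highest smallest WT percentile, every listed gene with a lost region, the first 5 promoters without and the first 5 with peaks in both Lats1-CKO luminal libraries, and genes in runs of at least 3. No test was made, since the groups have 2 libraries and regions are not replicates. The other E-boxes, the words of 6 letters, the position and number of matches, and the split of lost regions by the E-box were decided on after seeing the data. Alternatives were each library left out, autosomes only, WT peaks above the median score, the top 50000 peaks by score, merging across gaps of up to 200 bp, no BM4 or BM8 peak within 500 bp, 5 kb in place of 1 kb, and other lengths of searched sequence. Some genes and 1 sequence that the rule for named genes covers are not reported here.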

Additional observations from a re-analysis of the deposited data

How the results depend on the processing

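No paired analysis was possible because the labels give no replicate numbers or pairing and no result comes from a test. Of 105 values recomputed under an alternative, 68 stayed near the reported one and 37 moved. Near meant within 1.5 times a reported count, or within the 95% interval of a share or median. The interval (exact binomial for shares, order statistics for the median) takes regions as independent, which they are not, and serves only as a yardstick. Leaving out BM3 or BM7, which the rule does not use, could hardly change the lost regions. With each library left out in turn, the number of lost regions ranged from 790 to 2912, their share with a BM7 peak from 65.9% to 93.0%, with a BM3 peak from 9.92% to 21.9%, within 1 kb of a TSS from 16.6% to 23.2%, and with the E-box from 44.3% to 59.4%, and the median smallest WT percentile from 22.5 to 34.5. The lowest BM7, BM3 and TSS shares and the highest median came without BM6, the lowest E-box share (44.3%, kept regions 26.0%) without BM4. With WT peaks above the median score only, there were 126 lost regions, with 93.7% in BM7, 46.8% in BM3, 69.0% with the E-box (kept regions 24.3%) and a median of 60.4. With the top 50000 peaks by score in each library there were 1672, with 70.3% in BM7, 50.5% with the E-box (kept regions 23.4%) and a median of 34.7. Within 5 kb of a TSS lay 42.3% of the lost regions. The E-box share was 54.6% in whole regions (kept 22.4%) and 47.5% in the central 200 bp (kept 12.7%). Autosomes only, merging across gaps of 200 bp and the absence of BM4 and BM8 peaks within 500 bp moved none of the values computed under them. The application of these alternatives to the E-box and to the gene lists was chosen after seeing the data. The E-box share of lost regions exceeded that of kept regions in all 16 settings, the reported one included. Depth is unknown, so a weak open region and a closed one cannot be told apart in any library.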
